A study of Homo sapiens with 34 samples.

Results

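The MCM helicase genes MCM2, MCM3, MCM4, MCM5, MCM6 and MCM7 were examined as 6 of 19974 protein-coding genes on chromosomes 1 to 22 and X. They were taken by name, and a called region was assigned to a gene when it lay in the gene or within 1 kb of it. Their products form the ring-shaped MCM2-7 complex, which the origin recognition complex, CDC6 and CDT1 load onto DNA at replication origins in G1 phase. In S phase the loaded ring joins CDC45 and the GINS complex and becomes the replicative helicase. In human cells the 6 genes are known as targets of the E2F factors, which switch on replication genes before S phase. The regions described here were called at the MCM genes with antibodies to 3 other proteins, and do not show where the MCM proteins bound.

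Occupancy of chromatin was read by CUT&RUN: a nuclease tethered to an antibody cuts out the DNA around the antibody's target, and the released fragments are sequenced. U2OS cells, from a human osteosarcoma, were synchronised by a double thymidine block and collected 3 h after release. OGG1 is the glycosylase that excises 8-oxoguanine, SMARCA1 is an ATPase of the ISWI chromatin remodellers, and Orc6 is a subunit of the origin recognition complex. All cells carried an siRNA for 72 h, either siOrc6 against Orc6 or the control siGl3, and were given 5 mM H2O2 for 30 min or left non-treated (NT). The labels give 0.1% formaldehyde for every library. Of 34 samples in 18 groups, 20 libraries in 10 groups of 2 had a region list: OGG1 and SMARCA1 under siOrc6 H2O2, siOrc6 NT, siGl3 H2O2 and siGl3 NT, and Orc6 under siGl3 H2O2 and siGl3 NT. The other 14 samples, IgG libraries among them, were not analysed here, so no region was compared here with an IgG library. Whether the authors' region calling used one as a control is not stated in the labels. All libraries came from 1 cell line, and p-values measure the spread between libraries, which may be technical. Expression was not measured, so the lists do not show how far the siRNA lowered Orc6 or how active the MCM genes were.

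The lists differed widely in size, from 6992 to 132408 regions and from 31.8 to 825 Mb covered. With H2O2, OGG1 lists held 73301 to 132408 regions, against 17813 to 33435 in NT. SMARCA1 lists held 35381 to 69927 regions with H2O2 and 6992 to 14791 in NT, and Orc6 lists held 37154 to 52937 with H2O2 and 23375 to 63692 in NT. The median region of SMARCA1 lists was narrower with H2O2, 1.27 to 2.08 kb, than in NT, 3.23 to 6.57 kb. A region was found at or near 13.5% to 85.8% of protein-coding genes, depending on the library. The shortest list, of SMARCA1 siGl3 NT replicate 1, held no region at MCM2, MCM4, MCM6 or MCM7, so absence at the gene and the length of that list cannot be told apart.

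The 6 genes lie on different chromosomes (GRCh38.p14). MCM2, a subunit that also binds histones H3 and H4, is at chr3:127598411-127622436. MCM3 is at chr6:52264015-52284742, MCM4 at chr8:47960941-47978160, and MCM5 at chr22:35400140-35455031. MCM6 is at chr2:135839626-135876443, and MCM7, which forms with MCM4 and MCM6 a subassembly with helicase activity in vitro, is at chr7:100092728-100101397. Their annotated lengths ran from 8.67 kb for MCM7 to 54.9 kb for MCM5, against a median of 24.2 kb over all protein-coding genes.

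Every region set found at an MCM gene included its start. Of 120 pairs of an MCM gene and a library, 107 (89.2%) had at least 1 region, against 60.9% of the pairs over all protein-coding genes. All 107 had a region within 1 kb of the gene's start, which for MCM4 and MCM5 was taken as the lower-coordinate end. Over the 15813 genes with an annotated start in the promoter table, 83.8% of pairs with a region had one within 1 kb of the start, ranging from 51.3% to 92.6% between libraries. Another 102 of the 210 regions at the MCM genes lay elsewhere in the gene windows.

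**Figure D1:**
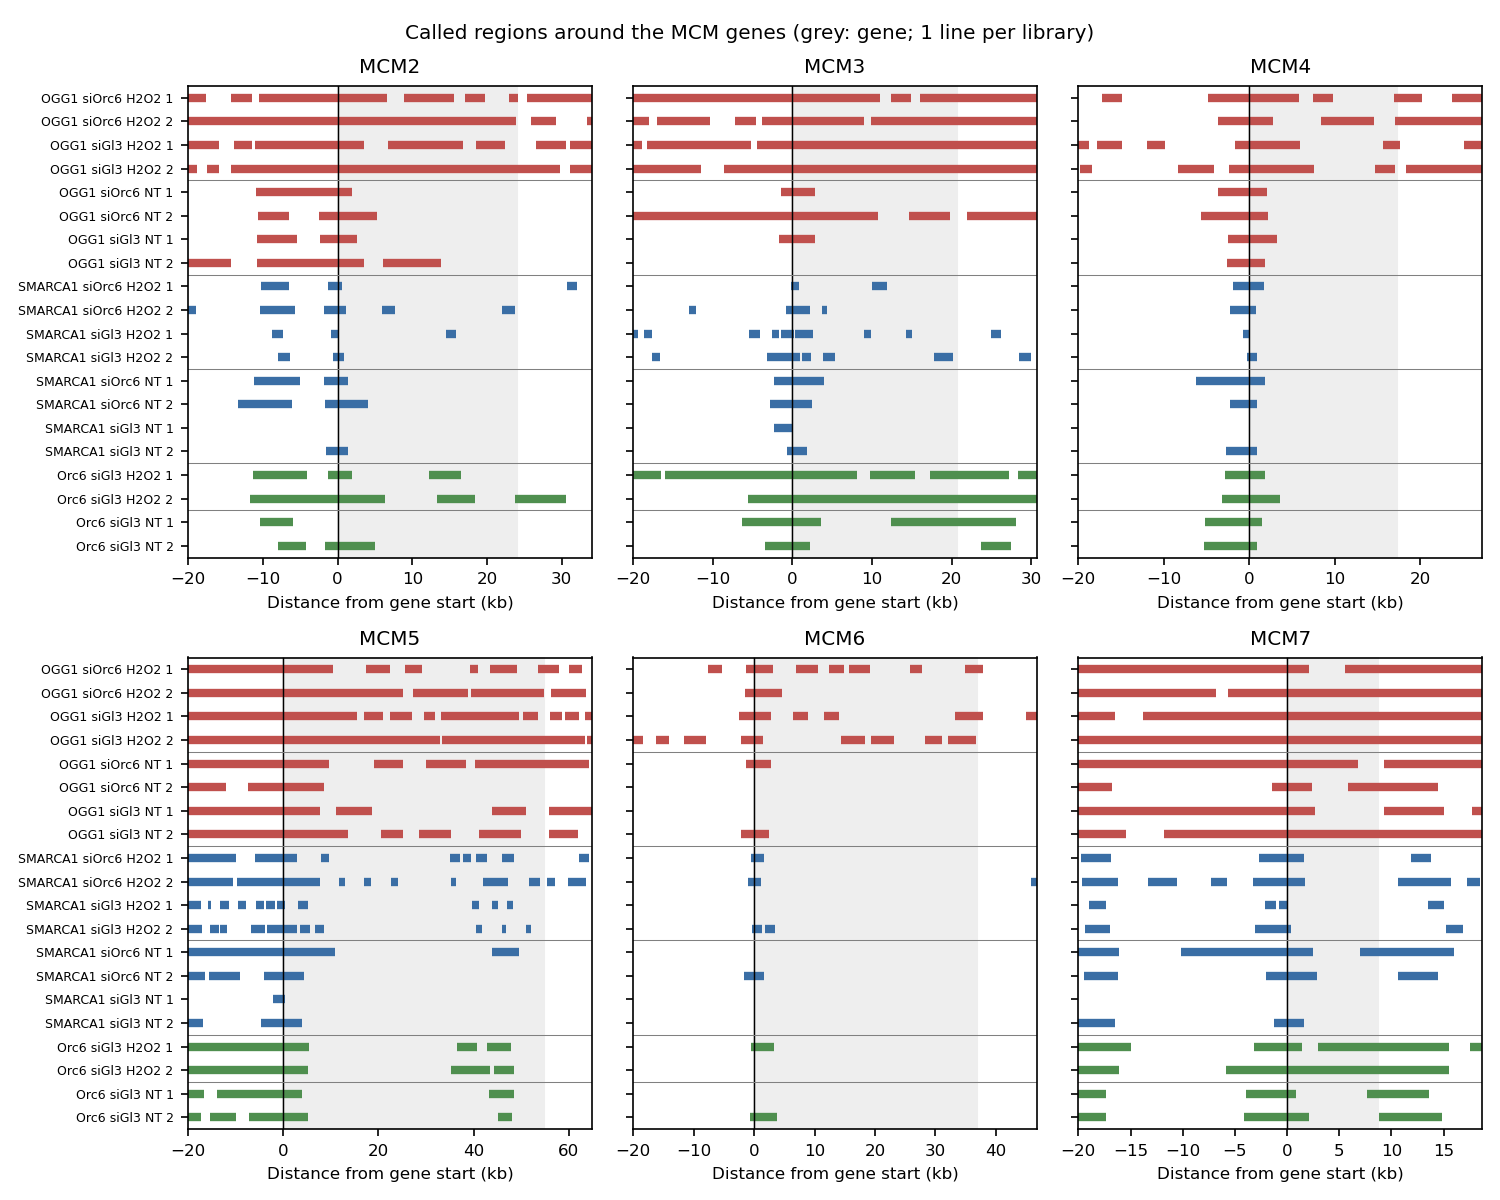
Called regions (bars) of each library, 1 line per library with its antibody, siRNA, treatment and replicate number, against distance from the gene start in kb along the gene; grey marks the gene and colours mark the antibody. Wherever a library has a region at an MCM gene, one lies within 1 kb of the start, and in the 4 OGG1 H2O2 libraries regions extend far into the genes.

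Because regions met at the gene starts, the 250 bases before each start are shown for the 4 members held by the RefSeq promoter table (GRCh38.p14), MCM2, MCM3, MCM6 and MCM7. Each is written 5′ to 3′ on the strand of the gene, and capitals mark matches on either strand to the E2F-type words TTTCGCGC, TTTGGCGC, TTTCCCGC and TTTGCCGC and to CCAAT.
MCM2, chr3:127598161-127598410, plus strand: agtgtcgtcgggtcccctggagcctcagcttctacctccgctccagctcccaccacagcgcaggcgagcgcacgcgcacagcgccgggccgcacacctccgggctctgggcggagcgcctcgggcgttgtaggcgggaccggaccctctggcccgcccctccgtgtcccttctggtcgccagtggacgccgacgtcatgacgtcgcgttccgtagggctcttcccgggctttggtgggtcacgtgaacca
MCM3, chr6:52284743-52284992, minus strand: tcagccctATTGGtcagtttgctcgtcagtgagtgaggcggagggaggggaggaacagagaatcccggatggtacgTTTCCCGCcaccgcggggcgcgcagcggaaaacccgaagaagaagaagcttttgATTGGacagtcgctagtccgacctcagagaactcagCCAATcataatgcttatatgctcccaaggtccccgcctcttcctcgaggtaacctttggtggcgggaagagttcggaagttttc
MCM6, chr2:135876444-135876693, minus strand: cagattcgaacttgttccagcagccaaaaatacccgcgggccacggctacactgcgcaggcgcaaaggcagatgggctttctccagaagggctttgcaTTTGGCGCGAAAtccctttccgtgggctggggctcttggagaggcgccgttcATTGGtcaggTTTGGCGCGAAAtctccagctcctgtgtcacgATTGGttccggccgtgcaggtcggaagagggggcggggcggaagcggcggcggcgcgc
MCM7, chr7:100101398-100101647, minus strand: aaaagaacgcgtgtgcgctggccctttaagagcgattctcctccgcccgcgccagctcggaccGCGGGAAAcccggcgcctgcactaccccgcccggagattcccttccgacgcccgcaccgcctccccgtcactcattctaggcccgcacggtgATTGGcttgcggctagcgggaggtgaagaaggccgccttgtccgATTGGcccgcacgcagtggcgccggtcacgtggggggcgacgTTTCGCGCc
The MCM6 promoter held 4 E2F-type matches, as 2 copies of TTTGGCGCGAAA in each of which the words of the 2 strands overlap. MCM7 held 2, one of them beginning 9 bases before the start, MCM3 held 1 and MCM2 held none. One or more of the 4 words occurred in 3.71% of 15813 promoter stretches of the same length. CCAAT was found 3 times at MCM3, 2 times at MCM6 and 2 times at MCM7 but not at MCM2, against 34.4% of promoters with a match. GGGCGG, a GC box word, was found 2 times each at MCM2, MCM6 and MCM7 and not at MCM3, against 55.8% of promoters. GC content was 70.8% at MCM2, 55.6% at MCM3, 62.8% at MCM6 and 68.8% at MCM7, against a median of 62.0%. These are matches of letters and not measured binding sites. MCM6, with the most E2F-type matches of the 4, was the member with the fewest occupied libraries.

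The strongest position of the region at the start lay close to the start itself for 3 genes. It was within 1 kb in 19 of 19 libraries with a region at MCM3, 19 of 19 at MCM4 and 12 of 12 at MCM6. At MCM6 it lay at -116 to 519 bases from the start, counted along the gene, with a median of 128 bases. At MCM7 it was within 1 kb in 17 of 19 libraries and at MCM2 in 13 of 18. At MCM5 it was within 1 kb in 10 of 20 libraries, and in the others it lay 27.7 to 100 kb before the start.

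The members differed from one another in how much of each gene was covered. The covered share is the percent of the gene and 1 kb on each side that lies under called regions. Its median over the 20 libraries was 48.0% for MCM7, 29.2% for MCM5, 21.7% for MCM3, 20.7% for MCM2, 14.5% for MCM4 and 6.28% for MCM6. Neighbours in this order overlapped widely: MCM7 was above MCM5 in 14 of 20 libraries, while MCM5 was above MCM3 in 7. MCM3 was above MCM2 in 15 libraries and MCM2 above MCM4 in 12. MCM4 was above MCM6 in 17 of 20. MCM7 is the shortest of the 6 genes, at 8.67 kb, and MCM5, next in this order, is the longest, at 54.9 kb. Whether gene length goes with the order was not tested.

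MCM5 was occupied in 20 of 20 libraries and MCM6 in 12 of 20. MCM3, MCM4 and MCM7 each had regions in 19 libraries and MCM2 in 18. The 8 libraries without a region at MCM6 comprised 2 OGG1 NT libraries, 1 SMARCA1 H2O2 library, 3 SMARCA1 NT libraries, 1 Orc6 H2O2 library and 1 Orc6 NT library. MCM2 lacked a region in SMARCA1 siGl3 NT replicate 1 and in Orc6 siGl3 NT replicate 1. MCM3 lacked one in OGG1 siGl3 NT replicate 2 alone.

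Regions at MCM5 ranked near the top of their lists and those at MCM6 lower. Each region was placed by the authors' total signal as a percentile of its own list, and the best region at each gene was kept. The median over libraries with a region was 99.8 for MCM5, 94.2 for MCM3, 93.5 for MCM7, 78.6 for MCM2, 67.1 for MCM4 and 63.5 for MCM6. By the authors' maximum signal in place of total signal, the medians were 98.7 for MCM5, 96.3 for MCM3, 92.4 for MCM7, 84.0 for MCM2, 82.5 for MCM4 and 87.0 for MCM6. MCM6 thus stood last by total signal and above MCM2 and MCM4 by maximum signal, and its regions at the start were the narrowest, with a median of 3.89 kb. The regions at the MCM5 start had a median width of 36.4 kb and reached 175 kb. Total signal grows with width, and percentiles taken within lists of different length cannot be used to show a change between libraries.

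**Figure D2:**
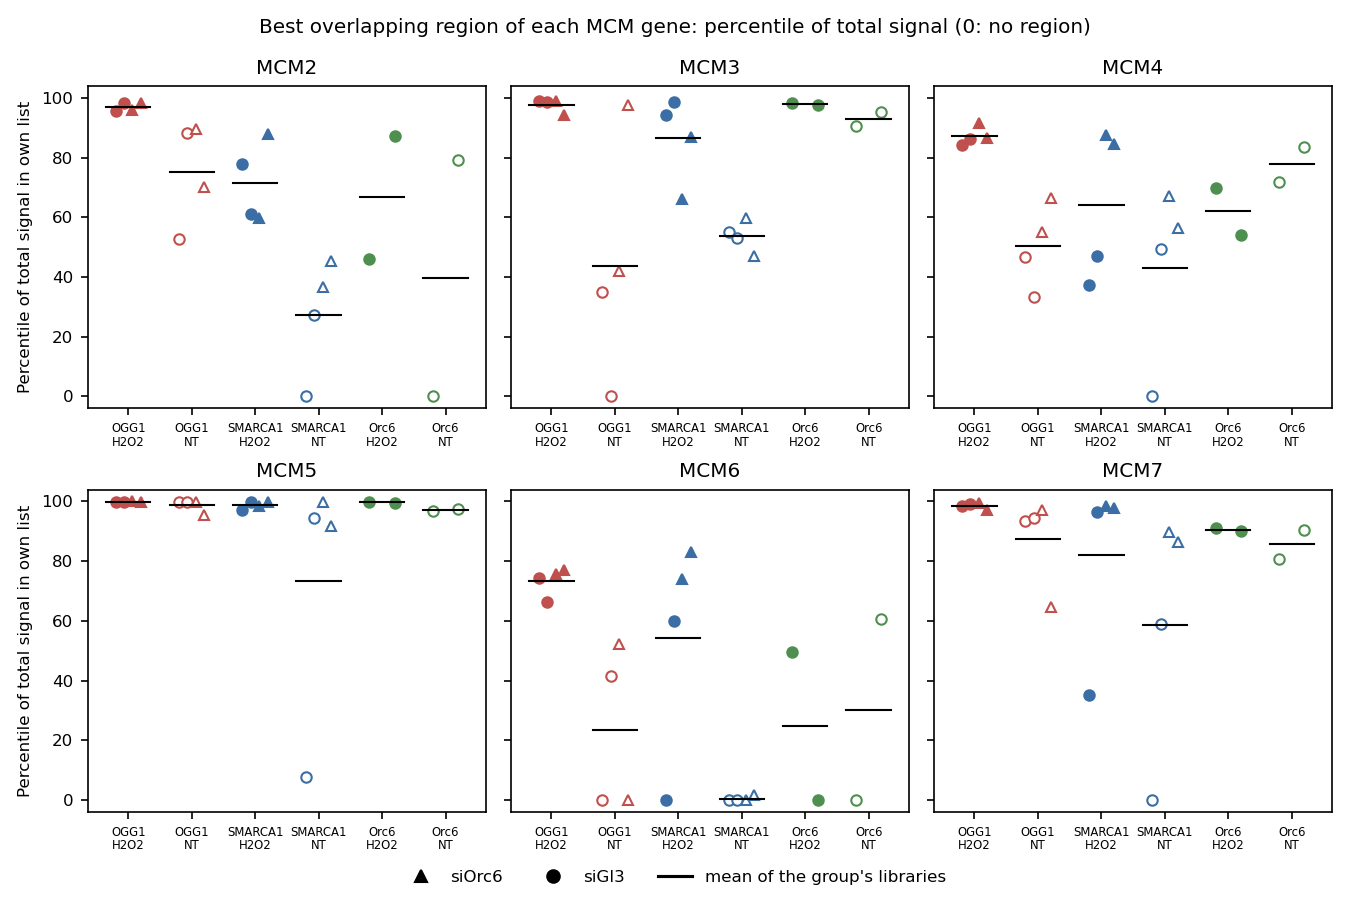
Percentile of total signal, within its own list, of the best region at each MCM gene (y axis, 0 where no region was called) by antibody and treatment; each point is 1 library, triangles are siOrc6, circles siGl3, filled points H2O2, and lines are means. Points for MCM5 lie near the top in most libraries, while MCM6 has 8 libraries at 0.

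With H2O2 the covered share was higher at MCM2, MCM3, MCM4, MCM5 and MCM6, while the difference at MCM7 did not pass the test. Differences, H2O2 minus NT averaged over antibodies and siRNAs, were 30.3 percentage points for MCM2, 41.5 for MCM3, 16.01 for MCM4, 21.0 for MCM5, 13.4 for MCM6 and 14.8 for MCM7 (n = 10 libraries each). Adjusted p-values by exact two-sided permutation within strata, adjusted by Benjamini-Hochberg over all 19974 genes, were 0.0228 for MCM2, 0.0117 for MCM3, 0.0359 for MCM4, 0.0303 for MCM5, 0.0498 for MCM6 and 0.215 for MCM7. So 5 of 6 members were called higher and none lower, against 41.9% of all genes called higher and 0.00501% called lower. The median difference over all genes was 13.5 points, and the median of the 6 members was 18.5 points, above 63.1% of genes. OGG1 and SMARCA1 lists held more regions with H2O2, while the Orc6 ranges overlapped. By covered bases the order differed. Orc6 lists covered 339 and 400 Mb with H2O2 and 143 and 290 Mb in NT, without overlap. OGG1 lists covered 557 to 825 Mb with H2O2 and 166 to 288 Mb in NT. SMARCA1 lists overlapped, at 78.3 to 158 Mb with H2O2 and 31.8 to 127 Mb in NT.

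The call depended on the settings. With the label exchanged only within pairs of the same replicate number, which the labels give as the batch, 1 member remained called, MCM3 (adjusted p = 0.0413 by exact permutation; 0.00844 to 1 over its alternatives), and 4103 genes in place of 8360. When every list was held to the length of the shortest or to its covered bases, 0 members and 0 of all genes were called. The same held for a start window, 1 kb on each side of the start. For genes without an annotated start, among them MCM4 and MCM5, that window took 1 kb around both gene ends. Leaving out single libraries ended the call at MCM4 without SMARCA1 siGl3 NT replicate 1 (adjusted p = 0.0573, exact permutation) or Orc6 siGl3 H2O2 replicate 2 (0.0545). It ended the call at MCM5 without SMARCA1 siOrc6 NT replicate 2 (adjusted p = 0.0529, exact permutation), SMARCA1 siOrc6 H2O2 replicate 2 (0.0526), OGG1 siOrc6 NT replicate 2 (0.0945) or OGG1 siOrc6 H2O2 replicate 2 (0.100). With 5 kb on each side of the gene in place of 1 kb, MCM4 was not called (adjusted p = 0.121, exact permutation). The call at MCM6 was the least stable of the 5. It ended in 21 of 27 alternatives, among them the gene body alone (adjusted p = 0.0526, exact permutation).

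At MCM2 the OGG1 libraries separated by treatment. In OGG1 H2O2 libraries 70.3% and 95.7% of the MCM2 window was covered under siOrc6 and 71.2% and 100% under siGl3, against 11.2% and 23.9% under siOrc6 and 14.0% and 47.7% under siGl3 in OGG1 NT libraries. The H2O2 and NT libraries did not overlap, as at 4 of 6 members and at 39.9% of all genes. In SMARCA1 H2O2 libraries it was 6.24% and 21.8% under siOrc6 and 8.94% and 5.52% under siGl3, against 9.13% and 19.5% under siOrc6 and 0% and 8.98% under siGl3 in SMARCA1 NT libraries, so those groups overlapped. In Orc6 libraries it was 27.6% and 52.8% with H2O2 and 0% and 22.99% in NT.

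MCM3, whose product takes part in the recruitment of the ring by CDC6 and the origin recognition complex in budding yeast, was covered almost whole by OGG1 regions after H2O2. OGG1 H2O2 libraries covered 88.8% and 96.1% of the MCM3 window under siOrc6 and 100% and 100% under siGl3, against 16.7% and 74.0% under siOrc6 and 16.7% and 0% under siGl3 in OGG1 NT libraries. No NT library reached the lowest H2O2 library. Orc6 libraries covered 84.4% and 100% with H2O2 and 61.7% and 14.3% in NT. SMARCA1 libraries stayed low, at 13.4% to 30.4% with H2O2 and 4.38% to 21.6% in NT.

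MCM4, whose tail is a main substrate of the CDC7 kinase, was covered in part in every OGG1 library. OGG1 H2O2 libraries covered 54.6% and 58.1% of its window under siOrc6 and 46.3% and 56.9% under siGl3, against 15.8% and 16.4% under siOrc6 and 22.1% and 14.99% under siGl3 in OGG1 NT libraries. The groups did not overlap. SMARCA1 libraries covered 8.28% ± 4.44 with H2O2 and 8.60% ± 6.13 in NT (mean ± SD, n = 4 each), a difference smaller than either SD. Orc6 libraries covered 14.5% and 23.7% with H2O2 and 13.2% and 10.2% in NT.

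MCM5, which with MCM2 forms the gate through which the ring opens, was covered at 52.4% and 93.3% under siOrc6 and 83.3% and 99.2% under siGl3 in OGG1 H2O2 libraries, against 71.0% and 16.9% under siOrc6 and 41.4% and 61.2% under siGl3 in OGG1 NT libraries. These groups overlapped, since OGG1 siOrc6 H2O2 replicate 1 lay below 2 NT libraries. SMARCA1 libraries covered 13.1% to 38.7% with H2O2 and 2.45% to 30.7% in NT. In those libraries 21 separate regions lay away from the MCM5 start with H2O2 and 1 in NT. The whole SMARCA1 lists held 35381 to 69927 regions with H2O2 and 6992 to 14791 in NT. Such regions were not counted over all genes, so the counts are not shown to be particular to MCM5. Beyond the middle of MCM5, the stretch under a region most often, 46.0 to 47.3 kb into the gene, was covered in 15 of 20 libraries.

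MCM6 had the lowest mean covered share of the 6 genes with each antibody. OGG1 H2O2 libraries covered 47.9% and 14.7% of its window under siOrc6 and 34.0% and 45.3% under siGl3, against 9.66% and 0% under siOrc6 and 0% and 8.83% under siGl3 in OGG1 NT libraries. The groups did not overlap, and 12 regions away from the start appeared in OGG1 H2O2 libraries against 0 in OGG1 NT libraries. The whole OGG1 lists held 73301 to 132408 regions with H2O2 and 17813 to 33435 in NT, and such regions were not counted over all genes. SMARCA1 libraries covered 0% to 8.66% with H2O2 and 0% to 6.98% in NT. Orc6 libraries covered 9.67% and 0% with H2O2 and 0% and 11.6% in NT. The adjusted p of MCM6 for H2O2 minus NT, 0.0498 by exact permutation, lay just under the threshold of 0.05. Leaving out single libraries gave adjusted p-values (exact permutation) between 0.0287 and 0.126. The call at MCM6 held in 6 of 27 alternatives and ended in the other 21.

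MCM7 was broadly covered by OGG1 regions with and without H2O2. OGG1 H2O2 libraries covered 67.4% and 100% of its window under siOrc6 and 100% and 100% under siGl3, against 77.2% and 67.8% under siOrc6 and 38.2% and 100% under siGl3 in OGG1 NT libraries. The groups overlapped, and 1 OGG1 NT library was covered whole. SMARCA1 libraries covered 24.1% and 25.1% under siOrc6 and 7.87% and 12.7% under siGl3 with H2O2, against 57.9% and 35.9% under siOrc6 and 0% and 24.2% under siGl3 in NT. The SMARCA1 mean was thus lower with H2O2, 17.46% ± 8.50 against 29.5% ± 24.1 in NT (SD, n = 4 each), a difference smaller than the SD in NT. Both Orc6 H2O2 libraries, at 84.9% and 100%, were above both Orc6 NT libraries, at 36.2% and 37.2%, an order found at 5 of 6 members and at 30.4% of all genes.

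**Figure D3:**
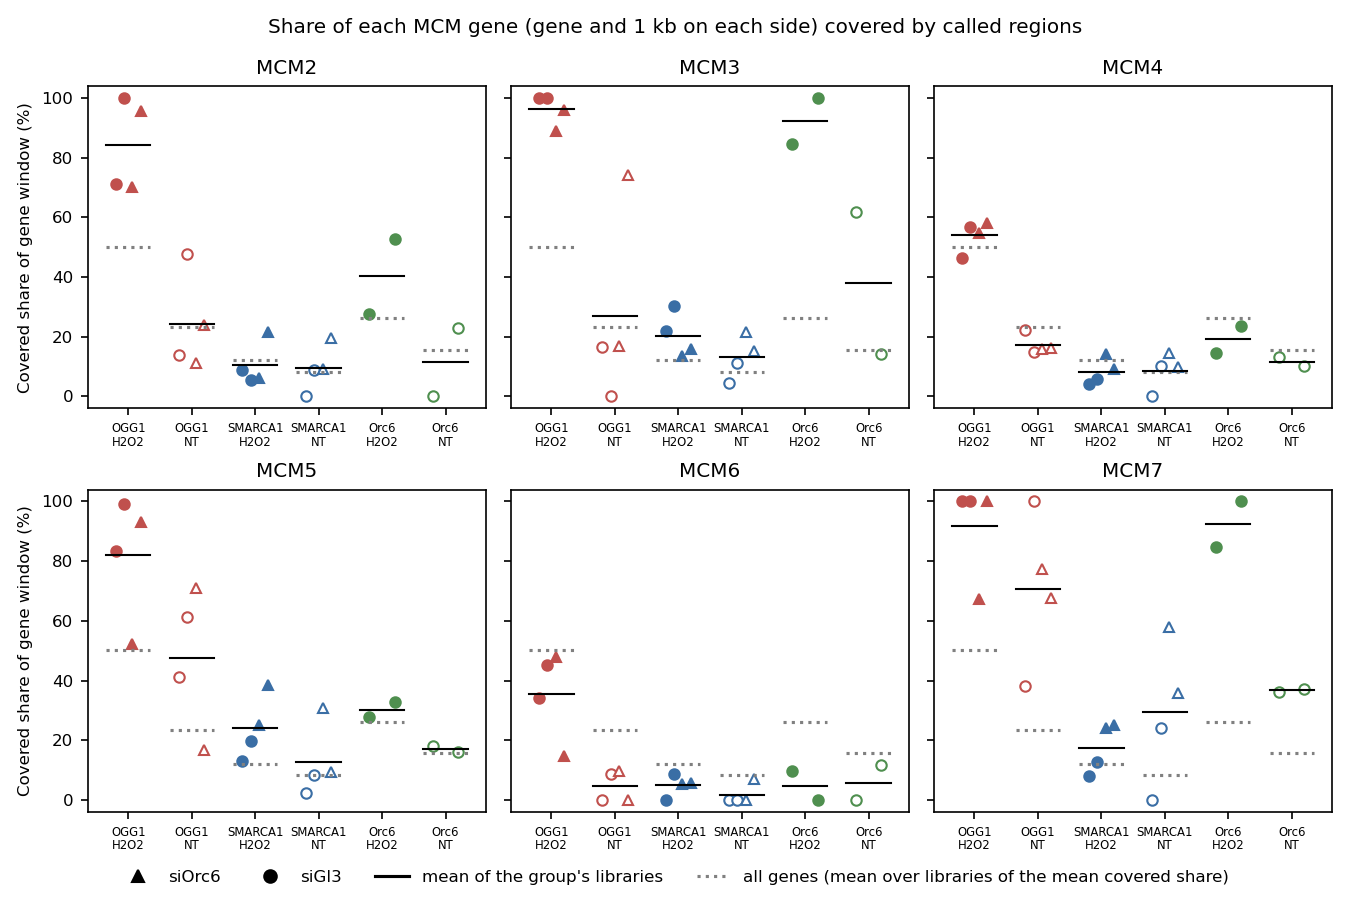
Percent of each MCM gene window covered by called regions (y axis) by antibody and treatment; each point is 1 library, triangles are siOrc6, circles siGl3, filled points H2O2, black lines means of the points, and dotted grey lines the mean covered share of all protein-coding genes in the same libraries. OGG1 H2O2 libraries do not overlap OGG1 NT libraries at MCM2, MCM3, MCM4 and MCM6, and do at MCM5 and MCM7; 39.9% of all genes show such a separation.

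Within OGG1 libraries the same-numbered difference, H2O2 minus NT, averaged 60.1 ± 8.32 points for MCM2, 69.4 ± 33.5 for MCM3, 36.6 ± 8.46 for MCM4, 34.4 ± 39.3 for MCM5, 30.9 ± 10.9 for MCM6 and 21.1 ± 32.6 for MCM7 (SD, n = 4 pairs). Within SMARCA1 libraries it averaged 1.20 ± 5.76 points for MCM2, 7.30 ± 13.3 for MCM3, -0.32 ± 3.41 for MCM4, 11.4 ± 14.2 for MCM5, 3.19 ± 4.71 for MCM6 and -12.0 ± 17.03 for MCM7. The difference between the antibodies, a test chosen after the data were seen, ran from 23 points for MCM5 to 62.1 points for MCM3. With 4 pairs against 4 the exact permutation test cannot go below p = 0.0286, which MCM2, MCM3, MCM4 and MCM6 reached, while MCM5 had p = 0.343 and MCM7 p = 0.143. After adjustment over all genes the smallest p was 0.0923 (exact permutation), so 0 genes passed, and the median difference over all genes was 20.2 points.

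**Figure D4:**
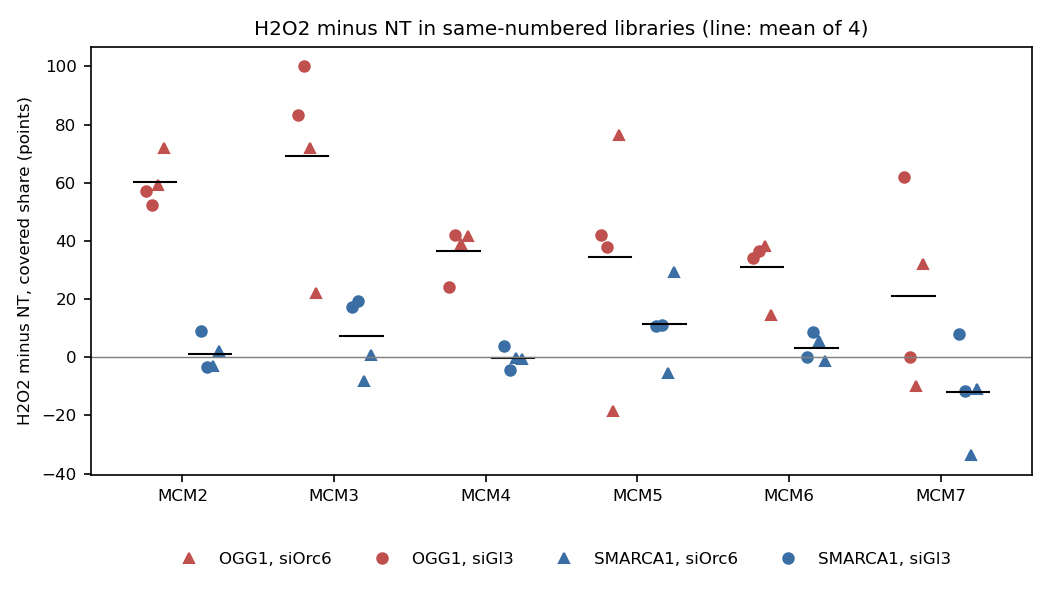
Covered share with H2O2 minus that in NT (y axis, percentage points) for each pair of libraries of the same replicate number, for OGG1 and SMARCA1 at each MCM gene; triangles are siOrc6, circles siGl3 and lines the mean of 4 pairs. All 4 OGG1 pairs are above 0 at MCM2, MCM3, MCM4 and MCM6, against 2, 3, 1 and 2 SMARCA1 pairs; all 4 OGG1 pairs are above 0 at 45.3% of all genes.

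OGG1 regions covered more of all 6 members than SMARCA1 regions did. Over both siRNAs and treatments, OGG1 covered 54.2% ± 35.5 of MCM2, 61.5% ± 42.9 of MCM3 and 35.7% ± 20.01 of MCM4, where SMARCA1 covered 10.01% ± 7.24 of MCM2, 16.7% ± 7.89 of MCM3 and 8.44% ± 4.96 of MCM4 (SD, n = 8 each). It covered 64.8% ± 27.7 of MCM5, 20.1% ± 19.6 of MCM6 and 81.3% ± 22.8 of MCM7, where SMARCA1 covered 18.4% ± 12.4 of MCM5, 3.34% ± 3.70 of MCM6 and 23.5% ± 17.9 of MCM7. The differences ran from 16.7 points for MCM6 to 57.8 points for MCM7, with adjusted p-values from 0.0113 to 0.0299 (exact permutation within strata, adjusted over all genes). So 6 of 6 members were called higher in OGG1 libraries, against 60.7% of all genes called higher and 0.00501% called lower, and the median over all genes was 26.1 points. Blocked by replicate number, MCM2, MCM4, MCM5 and MCM7 remained called at adjusted p = 0.0414 each (exact permutation), while MCM3 had 0.0785 and MCM6 0.0649. Over all alternatives adjusted p-values ran from 0.00793 to 1, and lists of equal length or equal covered bases called 0 members and 0 genes. Leaving out 1 library ended the call at MCM3 for OGG1 siOrc6 NT replicate 2 (adjusted p = 0.0559, exact permutation). At MCM6 it did so for SMARCA1 siOrc6 NT replicate 1, SMARCA1 siOrc6 H2O2 replicates 1 and 2, and OGG1 siOrc6 NT replicate 1, with adjusted p-values of 0.0560 to 0.104 (exact permutation).

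The Orc6 siRNA went with no called difference at any member. The covered share of siOrc6 libraries, pooled over OGG1 and SMARCA1, was 32.2% at MCM2, 42.7% at MCM3, 24.1% at MCM4, 42.2% at MCM5, 11.3% at MCM6 and 56.9% at MCM7. In siGl3 libraries it was 32.04% at MCM2, 35.5% at MCM3, 20.04% at MCM4, 41.1% at MCM5, 12.1% at MCM6 and 47.9% at MCM7. Differences, siOrc6 minus siGl3, lay between -0.82 points for MCM6 and 9.06 points for MCM7, and the exact permutation test called 0 members and 0 of all genes (0%), with 778 genes at an unadjusted p under 0.05. The signs at MCM2, MCM3, MCM5, MCM6 and MCM7 were not stable across settings. By occupancy alone, SMARCA1 libraries had a region at MCM6 in 3 of 4 siOrc6 and 1 of 4 siGl3 libraries, and at MCM2, MCM4 and MCM7 in 4 of 4 siOrc6 and 3 of 4 siGl3 libraries, the missing one being the shortest list.

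Counting only whether a region was present, Fisher's exact test (4 libraries on each side) could reach an unadjusted p under 0.05 at 1 member alone, MCM6 with SMARCA1, since at the others too many libraries were occupied. MCM6 was not called there (adjusted p = 0.638 for H2O2 against NT and 1 for siOrc6 against siGl3, Fisher's exact test), and the other members were not testable. OGG1 regions were present in 4 of 4 H2O2 libraries at each member, against 4 of 4 NT libraries at MCM2, MCM4, MCM5 and MCM7, 3 at MCM3 and 2 at MCM6. Of all genes, 7.84% were gained by OGG1 with H2O2, and none when any 1 OGG1 H2O2 library was left out. SMARCA1 regions were present in 3 of 4 H2O2 libraries at MCM6 against 1 of 4 in NT. No gene (0%) passed for SMARCA1 with H2O2, where 1007 genes had an unadjusted Fisher's exact p under 0.05, or for siOrc6 against siGl3 with SMARCA1, where 467 did, or with OGG1, where 0 did.

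Broad regions at several MCM starts were shared with the adjacent genes, so coverage there does not belong to the MCM gene alone. The MCM2 start lies 179 bases from TPRA1, and the region at the MCM2 start also overlapped TPRA1 in 18 of 18 libraries. Its strongest position lay inside TPRA1, 7.27 to 7.78 kb before the MCM2 start, in 4 libraries. MCM4 lies 804 bases from PRKDC, the gene of the catalytic subunit of DNA-dependent protein kinase, and 17 of 19 regions at the MCM4 start reached PRKDC. The MCM7 start lies within AP4M1, which shared the region in 19 of 19 libraries, and TAF6 lay under it in 9.

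MCM5 neighbours HMOX1, the gene of heme oxygenase 1, which is known to be induced by oxidative stress. HMOX1 ends 5.93 kb from the MCM5 start, and the region at the MCM5 start also covered part of HMOX1 in 14 of 20 libraries: 8 of 8 OGG1, 2 of 8 SMARCA1 and 4 of 4 Orc6 libraries. TOM1 lay under the same region in 9 libraries. In 5 OGG1 libraries, 3 with H2O2 and 2 in NT, the strongest position was 99.7 to 100 kb before the MCM5 start, near one end of TOM1. In 4 other libraries, 2 Orc6 H2O2, 1 OGG1 NT and 1 SMARCA1 NT, it was 27.7 to 28.3 kb before the start, between TOM1 and HMOX1, and in OGG1 siGl3 H2O2 replicate 2 it was 35.9 kb before. In the 6 SMARCA1 libraries whose region at the MCM5 start reached no other gene, that region stood at percentile 7.74 in siGl3 NT replicate 1 and at 91.9 to 99.8 in the other 5.

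MCM7 also holds the genes of 3 microRNAs, whose mature forms (RefSeq, GRCh38.p14) are shown with the seed, bases 2 to 8, in capitals because they lie inside MCM7, under its regions in some of the libraries.
hsa-miR-106b-5p, chr7:100094043-100094063, minus strand: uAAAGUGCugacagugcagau
hsa-miR-93-5p, chr7:100093815-100093837, minus strand: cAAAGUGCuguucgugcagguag
hsa-miR-25-3p, chr7:100093571-100093592, minus strand: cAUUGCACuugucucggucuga
miR-106b-5p and miR-93-5p share the seed AAAGUGC, and miR-25-3p has AUUGCAC. All 3 microRNA genes lay wholly under regions in 4 of 4 OGG1 H2O2 libraries, against 2 of 4 OGG1 NT libraries. The whole OGG1 lists covered 557 to 825 Mb with H2O2 and 166 to 288 Mb in NT. Other microRNA genes were not counted, so the pattern is not shown to be particular to these 3. In SMARCA1 libraries they were covered in 0 of 4 with H2O2 and 1 of 4 in NT. In Orc6 libraries all 3 were covered in 2 of 2 with H2O2, against MIR25 alone in 1 of 2 in NT.

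Among 27 other genes of origin licensing and helicase activation, 20 were called higher with H2O2 and 0 lower (exact permutation adjusted over all genes), beside 41.9% of all genes called higher, with a median difference of 24.0 points. By replicate block the count was 9, without single libraries it ran from 11 without OGG1 siOrc6 NT replicate 1 (13 without Orc6 siGl3 H2O2 replicate 2) to 22, and with lists of equal length it was 0. Among the 10 loading genes 7 were called, including ORC1, the largest subunit of the origin recognition complex (27.8 points, adjusted p = 0.00891 by exact permutation), and MCMBP, which binds MCM subunits (28.8 points, adjusted p = 0.0340). ORC6, the gene the siRNA targets, was called as well (27.2 points, adjusted p = 0.0241 by exact permutation). CDC6 and CDT1, which load the ring, and GMNN, which encodes the CDT1 inhibitor geminin, were not called, at 25.3, 1.52 and 6.88 points.

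Among the 14 activation genes 10 were called higher with H2O2. MCM10 differed by 31.95 points and CDC45 by 23.3 points, each with adjusted p = 0.00746 by exact permutation. The 4 GINS genes were all called, by 14.9 points for GINS1, 32 for GINS2, 30.7 for GINS3 and 25.7 for GINS4. TICRR, WDHD1, DONSON and DBF4 were called at 32.2, 32.4, 28.3 and 8.97 points, while CDC7, TOPBP1, MTBP and RECQL4 did not pass. The 3 homologues were called, at 38.8 points for MCM8, 9.23 for MCM9 and 17.4 for MCMDC2. ORC4 had the lowest mean covered share over the 20 libraries, 1.56%, and RECQL4 the highest, 81.4%.

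ORC3, ORC4, ORC5 and GINS1 had an OGG1 region in 4 of 4 H2O2 libraries and 0 of 4 NT libraries, each with an adjusted Fisher's exact p of 0.0323, beside 7.84% of all genes gained. Leaving out any 1 OGG1 H2O2 library left 0 of all genes called. Pairing by replicate number could call no gene, since its exact sign test cannot go below p = 0.125. No MCM2-7 gene had that pattern. In the antibody comparison 18 of the 27 genes were called higher with OGG1 and 0 lower, beside 60.7% of all genes, and 8 with the replicate block or without either SMARCA1 siOrc6 H2O2 replicate. Among them CDC45 had the widest gap at 64.2 points, followed by CDC6 at 51.7 and TICRR at 50.3 points. The siRNA comparison called 0 of 27.

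**Figure D5:**
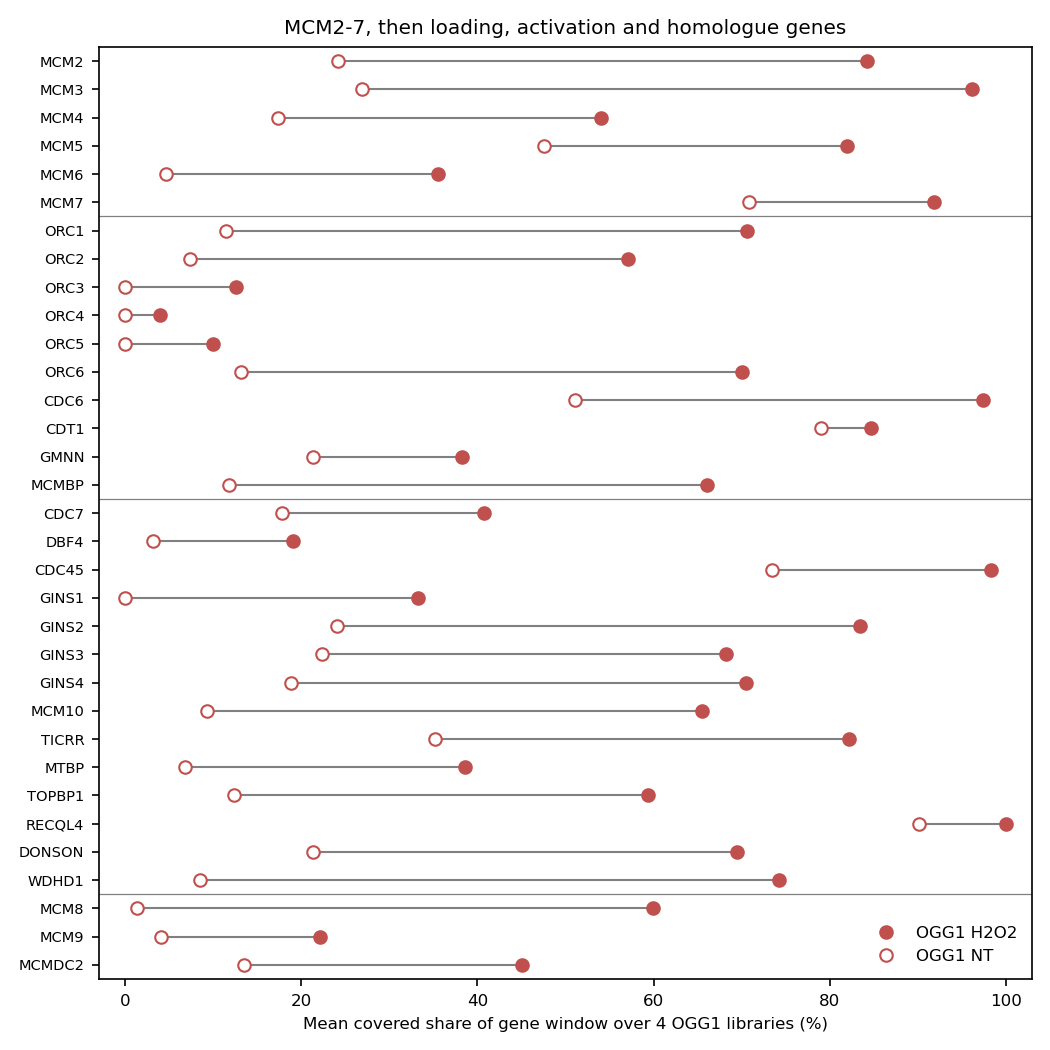
Mean percent of the gene window covered in the 4 OGG1 H2O2 libraries (filled) and the 4 OGG1 NT libraries (open), for MCM2-7 and then the loading, activation and homologue genes; lines join the 2 means of a gene. The H2O2 mean is the higher one for every gene drawn, from 3.94% at ORC4 to 100% at RECQL4. Over all protein-coding genes the median of the same means is 53.5% with H2O2 and 9.94% in NT, so the direction is not particular to the genes drawn.

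By the best total-signal percentile over the 20 lists, with 0 where no region was called, LSM1, BAG4, NRL, CXADR and SLC4A7 were the protein-coding genes closest to the mean of the 6 members. Their mean absolute differences from it were 5.44, 5.69, 5.97, 6.48 and 6.70 percentile points, against a median of 30.8 over all genes. MCM4 was the member closest to that mean, at 9.84 points, and MCM6 the farthest, at 33.5 points. Members are part of the mean they are compared with.

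The authors' deposited series list named for Orc6 in non-treated siGl3 cells, made from libraries that the labels do not name, held a region at the start of all 6 members. That list overlapped 43.6% of protein-coding genes. Among the authors' deposited SMARCA1 windows named up, those for siOrc6 H2O2 lay at the starts of MCM4, MCM5, MCM6 and MCM7, and those for siOrc6 NT at the starts of MCM2, MCM3, MCM5 and MCM7. These up windows overlapped 50.1% of all genes for siOrc6 H2O2 and 34.0% for siOrc6 NT. Windows named ns lay at the starts of MCM2 and MCM3 for siOrc6 H2O2 and of MCM4 for siOrc6 NT. At MCM5, 4 ns windows for siOrc6 H2O2 lay away from the start. The shares of all genes given here count an overlap anywhere in the gene or within 1 kb of it. These ns windows overlapped 44.5% of all genes for siOrc6 H2O2 and 10.5% for siOrc6 NT. These windows carry no values, and the labels do not say what was compared to name them.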

How the data were processed

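Region lists of 20 CUT&RUN libraries were used. The submitters' processing notes name build hg38 and the tools SEACR 1.1, Bowtie2, bedtools, SAMtools, deepTools, DESeq2 and DiffBind, without roles. Per the layout of the deposited files, each region carries the authors' total signal and maximum signal. Neither normalization nor controls are stated in the labels, and depth is unknown, so signal served only to rank regions within a list.

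Genes came from a GRCh38.p14 table. A window was the gene and 1 kb on each side; any overlap of at least 1 bp counted as occupied. Covered shares were compared by exact two-sided permutation within strata (7776 arrangements for H2O2, 1296 for siRNA and antibody), occupancy by Fisher's exact test (4 libraries a side), both with Benjamini-Hochberg adjustment over protein-coding genes and a threshold of 0.05. Fisher p-values were adjusted over genes whose total allows p under 0.05. Simulated data for H2O2 minus NT, 19974 genes with 200 shifted by 40 points, gave 79.5% of shifted genes called and 1 unchanged gene. The simulated arms had equal means at the unshifted genes, whereas 87.7% of genes had a positive difference in the data. The simulation therefore cannot show how many calls go with list size. The labels give the replicate number as batch, so numbers pair the samples; differences between replicates correlated with a median of -0.0164 over 45 pairs of groups, above 0.1 in 13 and under -0.1 in 13, so the pairing rests on the labels. No 2 of the lists were identical.

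Genes named were the 6 members, their neighbours, a list of 27 replication genes and the 5 genes of most similar percentiles. Members and lists were chosen with earlier results of these data known. The test between antibodies was added after seeing the data. Alternatives covered window, overlap, list length, covered bases, upper 50% of lists by total signal, block, signal column and left-out libraries. Python 3.11.15, numpy 2.4.6, pandas 2.3.3, scipy 1.17.1 and matplotlib 3.10.9 were used.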

Additional observations from a re-analysis of the deposited data

How the results depend on the processing

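The count of MCM genes called higher with H2O2, 5, was 4 with 5 kb flanks (MCM4 lost) and 4 in the gene body alone (MCM6 lost). It was 3 in the upper 50% of each list by total signal and 1 with the replicate block. With the 1 kb start window (both gene ends for MCM4 and MCM5), lists of equal length or lists of equal covered bases it was 0. Without single libraries the count was 3 to 5. It was 3 when SMARCA1 siGl3 NT replicate 1, SMARCA1 siOrc6 H2O2 replicate 2 or OGG1 siOrc6 NT replicate 2 was left out. The count of 6 for OGG1 against SMARCA1 was 0 with the start window or with equal lists, 4 with the replicate block, 4 in upper 50% lists (MCM3 and MCM6 lost, adjusted p = 0.0612 each by exact permutation) and 5 to 6 without single libraries. Of all genes, 8360 called higher with H2O2 became 4103 with the block and 5664 to 8982 without single libraries. The 12124 for OGG1 against SMARCA1 became 7042 with the block, 6408 in upper 50% lists, and 7777 without SMARCA1 siOrc6 H2O2 replicate 1; the start window and equal lists gave 0 in both.

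Of the 27 other replication genes, the 20 called with H2O2 became 9 with the block and 11 to 22 without single libraries, and the 18 for OGG1 became 8 with the block, 5 in upper 50% lists and 8 to 19 without single libraries; the start window and equal lists gave 0. In the upper 50% of SMARCA1 lists, 1 member, MCM2, was called with H2O2 (4 of 4 against 0 of 4 libraries). There 1527 of 19974 genes were called in place of 0. Without the cut MCM2 had a region in 3 of 4 SMARCA1 NT libraries, at percentiles 27.2, 36.6 and 45.5. Each list was cut by its own ranking and the lists differed in length, so 0 of 4 does not show absence. The 1566 genes gained by OGG1 became 2627 in upper 50% lists, 0 to 2700 without single libraries (0 without any 1 OGG1 H2O2 library, 2700 without OGG1 siOrc6 NT replicate 2), and 0 with equal lists or with the block. The exact sign test of the block cannot go below p = 0.125. Lists of equal length called 1029 genes for siOrc6 against siGl3 with SMARCA1, in place of 0, with 0 MCM genes among them.

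The direction reversed in these settings, none with a call, and the cause was not tested. With H2O2, MCM4 was -3.35 points at equal length. For siOrc6, MCM2 was -0.11 in the gene body and -1.48 in upper 50% lists, MCM5 -0.67 and MCM6 2.79 in upper 50% lists, MCM6 25.7 in the start window, MCM5 -3.03 and MCM7 -2.79 at equal length, and MCM3 -6.14 and MCM5 -2.60 at equal bases. Without single libraries MCM2 ran from -4.05 to 4.39, MCM3 from -0.0055 to 14.3, MCM5 from -5.69 to 7.83 and MCM6 from -4.97 to 3.33. For OGG1 against SMARCA1, MCM4 was -6.07 at equal length, and MCM3 -6.14, MCM4 -3.04 and MCM7 -15.3 at equal bases. For the difference between antibodies in the H2O2 effect, MCM2 was -0.71 and MCM7 -2.47 in the start window, and MCM3 -4.54, MCM4 -0.995 and MCM7 -0.45 at equal bases; no setting called a gene. Depth is unknown, so a missing region is not evidence of absence.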
